A study of Mus musculus with 2 samples.

Results

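Cytosolic ribosomal protein genes encode the protein part of the ribosome that translates nuclear messages. They were taken as the rows of both count matrices named Rpl or Rps with a number, together with Rplp0, Rplp1, Rplp2 and Rpsa, leaving out symbols with -ps, the Rps6k kinases and Rps19bp1. This gave 86 of 28692 genes, 53 of the large subunit and 33 of the small subunit. Of these, 83 had at least 50 UMIs (unique molecular identifiers, each standing for 1 captured RNA molecule) over both libraries and are called measured. The other 3 are Rpl39l, Rpl10l and Rpl3l, paralogs known from testis or muscle. Rpl39l had 0 UMIs in each library, which allows a level of up to 0.105 CPM (UMIs per 1000000) in cisplatin and 0.0936 CPM in vehicle. Rpl10l had 1 UMI in cisplatin and 1 in vehicle, and Rpl3l had 3 in cisplatin and 1 in vehicle.

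The study holds 2 single-cell RNA libraries of lung tumour cells, labelled small cell lung cancer, a fast-growing neuroendocrine carcinoma. The cisplatin library came from mice given the DNA-crosslinking drug cisplatin at 5 mg per kg repeatedly over 2 weeks, and the vehicle library from mice given saline on the same plan. The library protocol names etoposide beside cisplatin for the treated tumours, the sample title says chemotherapy, and whether etoposide was given is not settled by the labels. All mice were of mixed strain and carried CGRPCreER/+, a tamoxifen-inducible Cre at the CGRP (Calca) locus of neuroendocrine cells. They also carried the floxed alleles Rbf/f and P53f/f together with Ptenf/f, and Rosa26mTmG, a reporter that turns to GFP after Cre recombination, so both libraries share all of these. Live GFP-positive cells were sorted and 5000 were loaded per library. The age and the number of the mice behind each library are not given in the sources used here. With 1 library per group there is no replicate check: no test was made, and every interval below is an exact 95% interval that covers counting error only.

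Of the barcodes, 4213 in cisplatin and 3650 in vehicle were used as tumour cells, with a median of 5939 and 8206 UMIs. Neuroendocrine markers were present as labelled, all 10 of 10 detected in each library, with a summed level of 8014 CPM in cisplatin and 5998 CPM in vehicle. Chga, a granin of secretory vesicles, stood at 708 CPM in cisplatin and 368 CPM in vehicle, while Calca, the locus that drives Cre, was near 0 at 0.384 and 0.468 CPM. Among sets of other cell types, the 4 club cell markers summed to 2065 CPM in cisplatin and 204 CPM in vehicle, and the 6 alveolar type 2 markers to 188 and 26.8 CPM, with no marker of either set at 0. The 5 erythroid markers summed to 0.734 CPM in cisplatin and 53.9 CPM in vehicle, and the 5 neutrophil markers to 2.97 and 33.7 CPM. The part of these differences in the values below was not tested. The libraries shared 23 barcode sequences.

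A ribosome joins a large subunit, which forms the peptide bond, with a small subunit, which reads the message. Cells make their proteins in nearly equal numbers, and many of these messages begin with a run of pyrimidines, the 5′ TOP motif, through which mTOR signalling and Larp1 set their translation. Fast-dividing tumour cells, those of small cell lung cancer among them, keep up a high output of ribosomes. Because droplet libraries count message ends, the values describe message levels, not ribosomes or protein.

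Ribosomal protein messages made up a smaller part of the RNA in the cisplatin library. They took 12.3% of UMIs in cisplatin (12.29 to 12.32%, 3522981 of 28628678 UMIs) and 14.2% in vehicle (14.16 to 14.18%, 4541578 of 32049978 UMIs), a log2 ratio of -0.20. The median over all 13388 measured genes was itself at -0.16 on this scale, and the median over the 83 members was at -0.27, which is 0.11 below it. Large-subunit members had a median of -0.23 and small-subunit members of -0.32. Of the members, 64 were below 0 and 19 above. The shift depends on the scaling: with TMM factors the ratio of the summed share was -0.07, and with median-of-ratios size factors it was -0.05, while the members' median stayed 0.10 and 0.09 below the median of all genes.

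**Figure D1:**
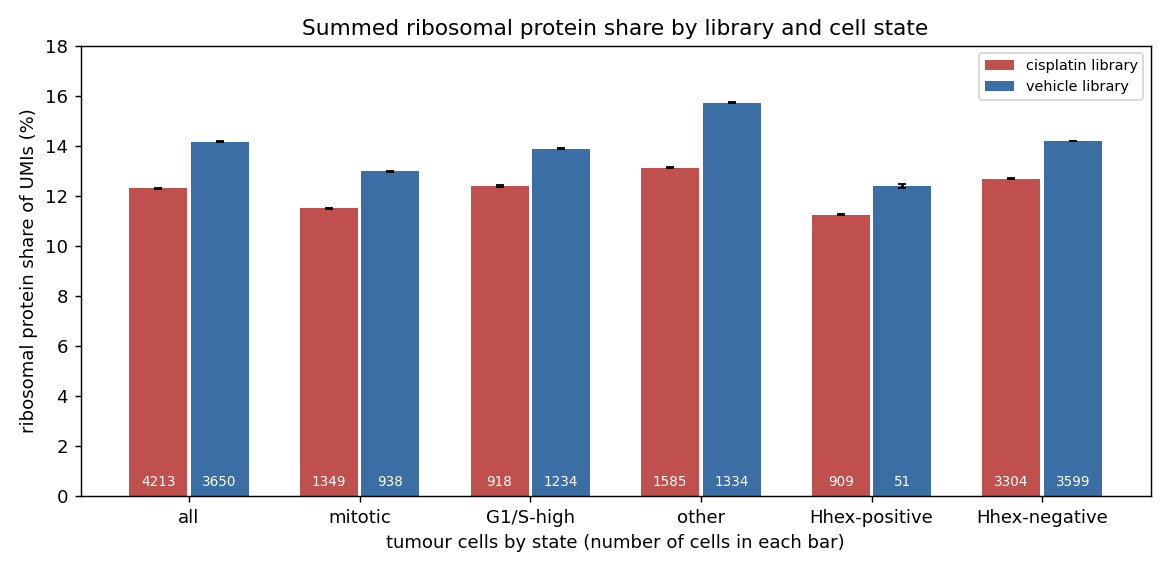
Share of all UMIs taken by the 86 ribosomal protein genes (y axis, percent) in tumour cells of each state (x axis), cisplatin bars left of vehicle bars; error bars are exact 95% counting intervals and the number in each bar counts its cells. In every state drawn the cisplatin bar is below the vehicle bar, at 12.3% and 14.2% over all tumour cells, and in both libraries the cells in neither cell cycle class have the highest share.

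The order of the cell cycle classes was the same in both libraries. Cells were classed after each was thinned to 3000 UMIs: mitotic cells had at least 2 UMIs over 10 mitotic genes, G1/S-high cells were not mitotic and had at least 3 UMIs over 12 G1/S genes, and other cells met neither limit. The share was 11.5% in 1349 mitotic cells, 12.4% in 918 G1/S-high cells and 13.1% in 1585 other cells of the cisplatin library. It was 13.0% in 938 mitotic cells, 13.9% in 1234 G1/S-high cells and 15.7% in 1334 other cells of the vehicle library. On the log2 scale mitotic cells were at -0.19 relative to other cells in cisplatin and at -0.28 in vehicle, and G1/S-high cells at -0.08 and -0.18. The classes are ranges of a score, with 791 cisplatin and 706 vehicle cells lying 1 UMI under the mitotic limit, and the cause of the order was not tested. Depth moved with the classes, at a median of 8102 UMIs in mitotic and 5310 in other cisplatin cells, and 9937 and 7550 in vehicle. Among cells with 5000 to 10000 UMIs the mitotic ratio was -0.17 in cisplatin and -0.30 in vehicle.

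Within each cell cycle class the cisplatin library had the lower share, with a log2 ratio of -0.17 in mitotic, -0.16 in G1/S-high and -0.26 in other cells. Cells with at least 1 UMI of Hhex, a homeobox factor that also marks pancreatic delta cells, were set against cells with none. In the cisplatin library the share was 11.2% in 909 Hhex-positive cells and 12.7% in 3304 Hhex-negative cells, a log2 ratio of -0.18. In the vehicle library it was 12.4% in 51 Hhex-positive cells and 14.2% in 3599 Hhex-negative cells, a ratio of -0.20. Hhex-positive cells of the cisplatin library were deeper, at a median of 7926 against 5528 UMIs, and with 5000 to 10000 UMIs the ratio there was -0.14. Without Hhex-positive cells the ratio of cisplatin to vehicle was -0.16.

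**Figure D2:**
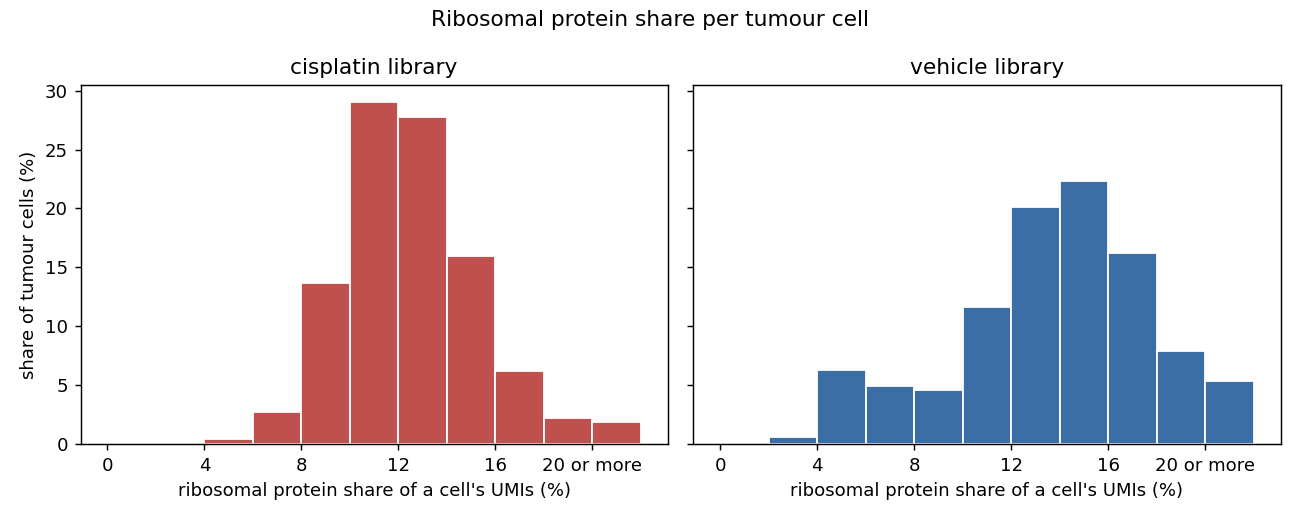
Distribution of the ribosomal protein share of each tumour cell's UMIs (x axis, percent, in steps of 2 percentage points up to 20% and 1 open class above) as a percent of the tumour cells of that library (y axis), cisplatin left and vehicle right. The cisplatin cells form 1 peak around a median of 12.2%, while the vehicle cells have a main peak around a median of 14.2% and a second group at low shares.

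Single cells of the vehicle library spread more widely. The median cell had a share of 12.2% in cisplatin, with 8.44% at the 5th percentile and 17.5% at the 95th, and of 14.2% in vehicle, with 5.54% and 20.2%. Under a share of 8% lay 137 of 4213 cisplatin cells (3.25%, 2.74 to 3.83%) and 432 of 3650 vehicle cells (11.8%, 10.8 to 12.9%). The limit of 8% was set after the distribution was seen, and 273 cisplatin and 138 vehicle cells lay within 1 percentage point of it. In the vehicle library the low cells had a median mitochondrial share of 6.46%, against 2.67% in the rest, and a median of 4004 against 8577 UMIs. In cisplatin the mitochondrial share of the low cells was 3.43%, against 3.35% in the rest, and 73.8% of the low cells that could be classed were mitotic, against 33.9% of the rest, while in vehicle these shares were 34.4% and 25.9%. Vehicle cells with a mitochondrial share of 8 to 10% had a ribosomal protein share of 6.63%, and those with 2 to 4% a share of 14.7%; the cisplatin cells of these classes had 10.5% and 12.2%. Restricting both libraries to cells with a mitochondrial share of at most 5% gave a ratio of -0.25 for cisplatin over vehicle.

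**Figure D3:**
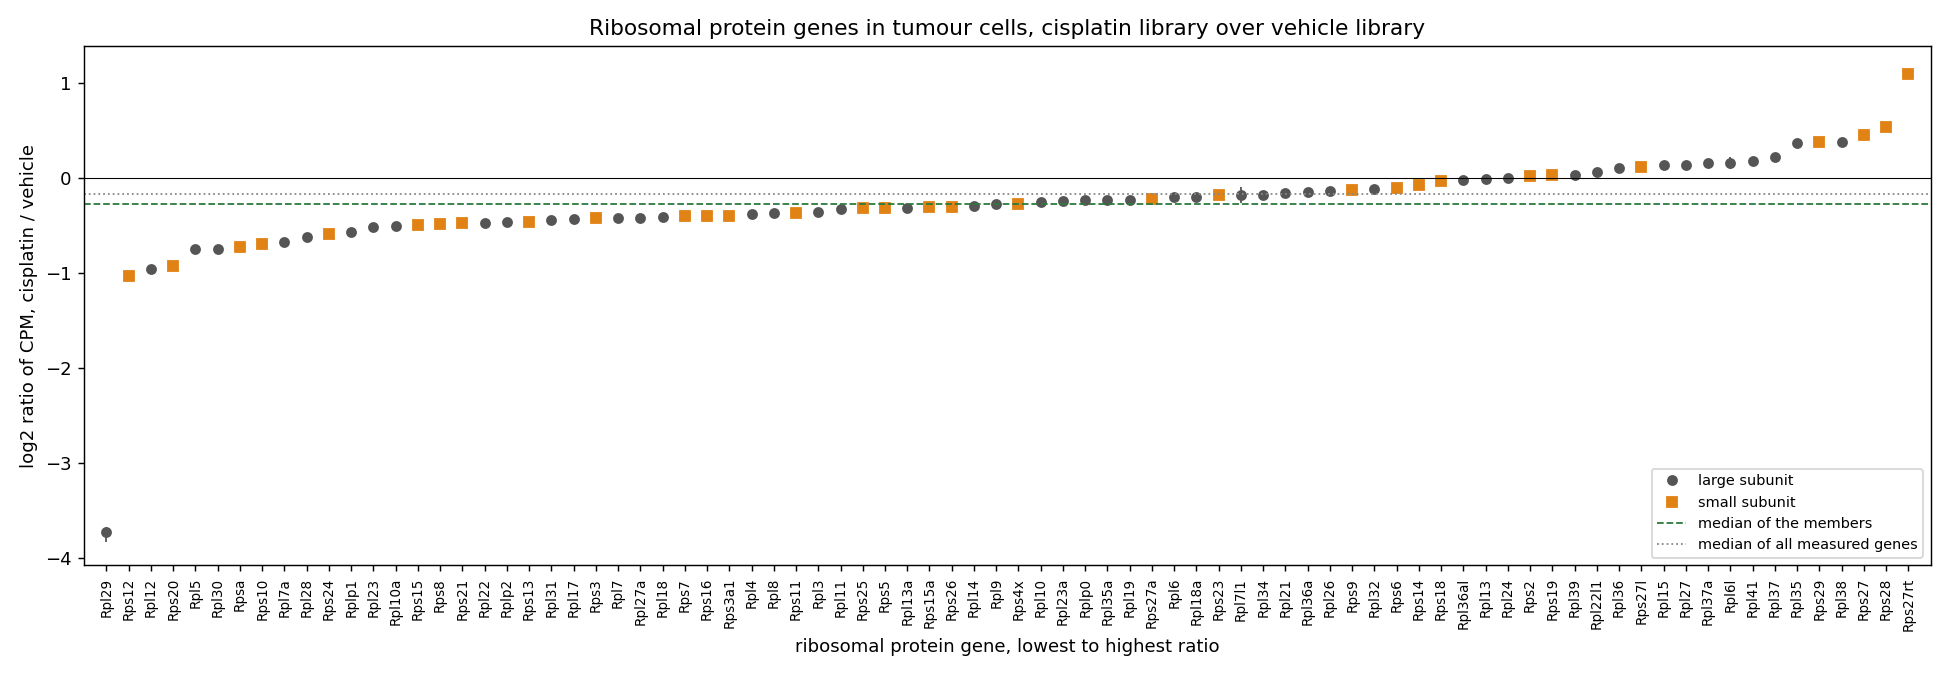
Log2 ratio of CPM, cisplatin over vehicle, in tumour cells (y axis) for 82 of the 83 measured ribosomal protein genes, ordered from lowest to highest (x axis); bars are 95% counting intervals, mostly smaller than the symbols, and lines mark the median of the members and of all measured genes. Rpl29 lies far below the rest at -3.72 and Rps27rt above them at 1.10, while most members lie between -0.75 and 0.25.

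Most members kept close to one another, and a few departed. The middle members, from the lower to the upper quartile, had ratios of -0.43 to -0.03. A 1.5-fold difference in CPM was passed by 10 members lower in cisplatin, against 17.6% of all measured genes, and by 1 member higher, against 6.68%. Under TMM these counts were 7 lower and 2 higher, and under size factors 5 lower and 3 higher, so that 22.2% and 37.5% of the calls were higher ones in place of 9.09%. Members at least 0.5 on the log2 scale from the members' own median, a measure that no scaling changes, numbered 10, against 27.4% of all genes around the median of all genes. Of these, 4 were below (Rpl29, Rps12, Rpl12, Rps20) and 6 above (Rps27rt, Rps28, Rps27, Rpl38, Rps29, Rpl35). Closest to the limit without reaching it were Rpl37 above the median, at a ratio of 0.23, and Rpl5 below it, at -0.74. Each of these 3 counts is a smaller share of the 83 members than its background, which was not matched to the members in abundance.

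Rpl29 stood apart from every other member. It encodes a large-subunit protein that mice can live without, with slowed growth. The gene lies on chr9:106429454-106431568, plus strand, of GRCm38 (mm10). It had 1422 UMIs or 49.7 CPM in cisplatin (47.1 to 52.3) and 21395 UMIs or 668 CPM in vehicle (659 to 677), a log2 ratio of -3.72 and a 13.2-fold difference. This was the lowest ratio among the 6706 genes that averaged 20 CPM or more, where the next was Igf2 at -3.11, and the 3rd lowest of all 13388 measured genes. After thinning to 3000 UMIs, 536 of 3852 cisplatin cells (13.9%) and 2924 of 3506 vehicle cells (83.4%) had an Rpl29 UMI, and before thinning 27.7% and 94.5% of tumour cells did. Ribosomal proteins are made by all cells, so no cell type without the gene can serve as a background here.

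The difference was much the same in each state. In mitotic cells Rpl29 was at 48.7 CPM in cisplatin and 650 CPM in vehicle, in G1/S-high cells at 52.6 and 663 CPM, and in other cells at 48.4 and 696 CPM. Hhex-positive cells had 48.4 CPM in cisplatin and 634 CPM in vehicle, and Hhex-negative cells 50.1 and 668 CPM. The log2 ratios of cisplatin over vehicle in these states ran from -3.82 to -3.63. Among thinned cells the variance over the mean of the Rpl29 count was 1.01 in cisplatin and 1.14 in vehicle, where counting error alone gives about 1. The vehicle value thus lay above it, and whether either library holds a separate high or low group of cells was not tested. Rpl29 was also lower in cisplatin among the few barcodes outside the tumour class. In the barcodes set aside for carrying 3 or more markers of a non-tumour type, Rpl29 had 3 of 37014 UMIs (81.1 CPM, 16.7 to 237) over 5 cisplatin barcodes and 190 of 255168 UMIs (745 CPM, 642 to 858) over 22 vehicle barcodes. This was not particular to Rpl29. In the same barcodes Rps12 had 675 CPM in cisplatin and 1803 CPM in vehicle, Rpl12 had 432 and 1524 CPM, and Rps20 had 1216 and 2281 CPM. Rps27rt had 729 CPM in cisplatin (481 to 1061) and 470 CPM in vehicle (390 to 562), with intervals that overlap. The whole family took 17.2% of the UMIs of these barcodes in cisplatin and 20.2% in vehicle. The barcodes differed in type: 3 in cisplatin and 1 in vehicle carried macrophage or monocyte markers, and 0 and 9 T or NK markers. The part of cell type in these values was not tested.

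Rpl29 has many near-copies in the genome. Of the 50-base stretches in the last 300 bases of its transcript, 47.8% were found in no other annotated transcript, and of the 100-base stretches 89.1%, the rest being shared with transcripts of 41 and 11 other genes. The sources used here do not say how reads that match several genes were counted. The part of such reads in the difference was not tested.

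**Figure D4:**
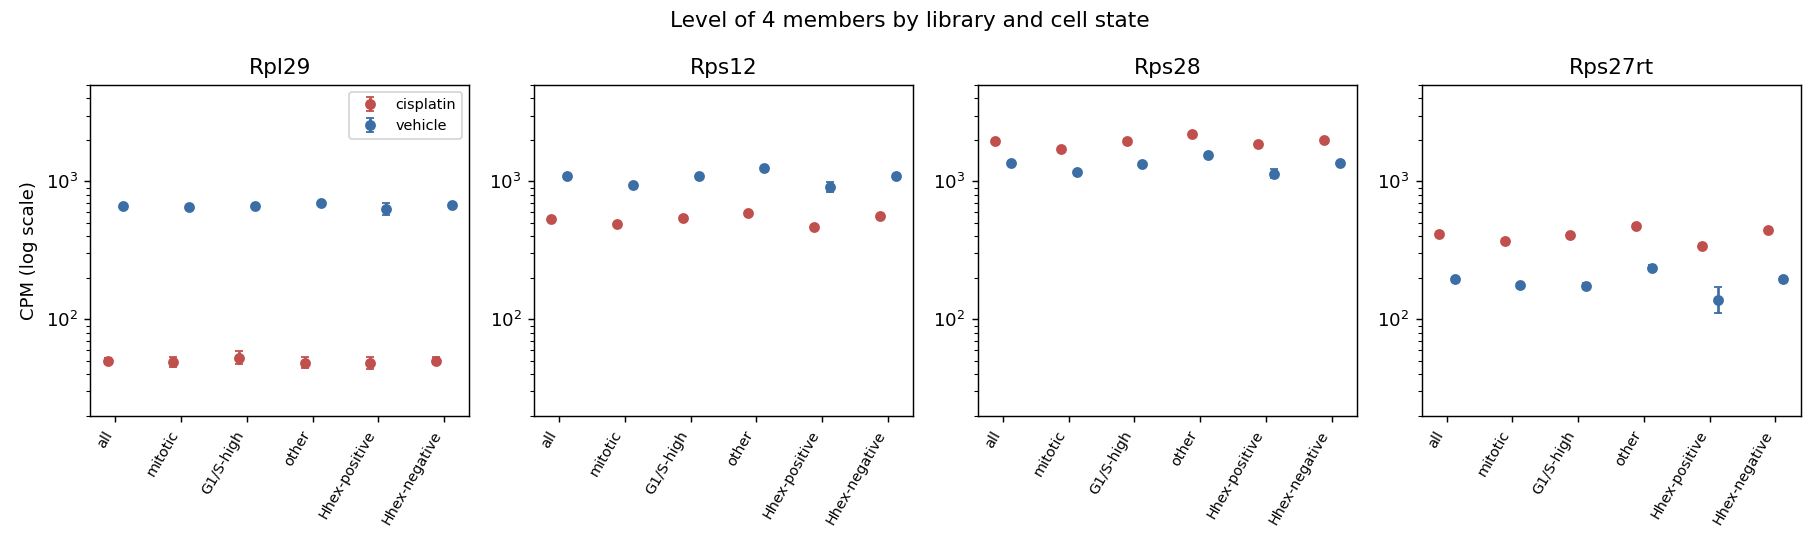
Level (y axis, CPM, log scale) of Rpl29, Rps12, Rps28 and Rps27rt by cell state (x axis), cisplatin points left of vehicle points, with exact 95% counting intervals. Rpl29 and Rps12 are lower and Rps28 and Rps27rt higher in cisplatin in each state drawn, with Rpl29 at 49.7 against 668 CPM over all tumour cells.

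The other 3 low members differed about 2-fold. Rps12, a small-subunit protein that in Drosophila takes part in sensing ribosomal protein loss, had 537 CPM in cisplatin (528 to 545) and 1093 CPM in vehicle (1081 to 1104), a log2 ratio of -1.02. Rps20, of the head of the small subunit, had 751 CPM in cisplatin and 1425 CPM in vehicle, a ratio of -0.92. Rpl12 forms the base of the ribosomal stalk, where elongation factors land. It had 363 CPM in cisplatin and 708 CPM in vehicle, a ratio of -0.96. Rps12 was lower in each cell cycle class, with ratios of -0.92 in mitotic, -1.02 in G1/S-high and -1.10 in other cells, and Rps20 and Rpl12 ran from -0.95 to -0.86 and from -1.07 to -0.84. Every 50-base stretch near the end of the Rps20 and Rpl12 transcripts searched was found in those genes alone. None was in Rps12, whose stretches all occur in the row Rps12-ps3 too, and with that row added its ratio was -0.96. The transcript searched was 3706 bases long for Rps20, with 357 coding, and 1242 bases long for Rpl12, with 495 coding. Whether the counted reads came from these ends was not tested, nor was the part of shared reads in the Rps20 and Rpl12 ratios.

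The 6 high members encode proteins of 56 to 123 residues. Rps28, at the exit of the message channel, had 1954 CPM in cisplatin (1938 to 1971) and 1348 CPM in vehicle (1336 to 1361), a log2 ratio of 0.54. Rpl38, which mouse embryos need for the translation of Hox messages, had 1830 CPM in cisplatin and 1400 CPM in vehicle, a ratio of 0.39. The zinc-binding Rps29 had 3052 CPM in cisplatin and 2340 CPM in vehicle, a ratio of 0.38. Rpl35, beside the exit of the peptide tunnel, had 1316 CPM in cisplatin and 1014 CPM in vehicle, a ratio of 0.38. Over all tumour cells none of these 4 passed 1.5-fold, and all 4 were above 0 in each of the 3 cell cycle classes, with ratios from 0.33 to 0.57. Rps28 did pass it in Hhex-positive cells, at 0.72, where 12.3% of all genes were 1.5-fold higher, and over all tumour cells under TMM and size factors.

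Rps27 and Rps27rt have to be read together. Rps27, a zinc finger protein of the small subunit, had 3052 CPM in cisplatin and 2233 CPM in vehicle, a log2 ratio of 0.45. Rps27rt, its retrogene, had 418 CPM in cisplatin (411 to 426) and 195 CPM in vehicle (190 to 200), a ratio of 1.10, and was the 1 member past 1.5-fold higher. The Rps27 end holds no 50-base stretch of its own, and 88.4% of the Rps27rt stretches also occur in Rps27, so reads of the pair may have been split between the rows. The sum of both rows was 3470 CPM in cisplatin and 2427 CPM in vehicle, a ratio of 0.52, which does not pass 1.5-fold.

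The windows around the annotated starts show how the departing members begin. Each window covers 15 bases on either side of the start in the RefSeq promoter table (GRCm38.p6), read 5′ to 3′ on the gene's strand. Capitals mark a run, a C followed by at least 4 bases that are each C or T. A run that begins at the start was marked from there, and otherwise the longest one beginning up to 5 bases from it. In Rps27, Rpl38 and Rpl35 the marked run continues a stretch of C and T that begins before the start. The lower members come first, then the higher ones.
Rps12: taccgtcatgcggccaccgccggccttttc
Rpl12: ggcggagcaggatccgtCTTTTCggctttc
Rps28: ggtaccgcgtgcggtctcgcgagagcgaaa
Rps27: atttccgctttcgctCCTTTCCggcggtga
Rps27rt: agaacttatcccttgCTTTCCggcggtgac
Rpl38: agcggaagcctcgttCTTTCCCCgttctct
Rpl35: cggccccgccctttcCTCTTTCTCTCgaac

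They lie at chr10:23787195-23787224, minus strand, for Rps12 and chr2:32961697-32961726, plus strand, for Rpl12. The Rps28 window is chr17:33824548-33824577, minus strand, that of Rps27 chr3:90213634-90213663, minus strand, and that of Rps27rt chr9:114982725-114982754, minus strand. The Rpl38 window is chr11:114668565-114668594, plus strand, and the Rpl35 window chr2:39005117-39005146, minus strand. Rpl29, Rps20 and Rps29 are named only. A run was marked for Rpl12, Rps27, Rps27rt, Rpl38 and Rpl35, thus among lower and higher members alike, and none for Rps12 and Rps28. The Rps12 window does end in a run of C and T, but that run begins more than 5 bases past the start, outside the search. Over the 62 members found in the table, 14 had such a run exactly at the start (22.6%) and 30 within 5 bases of it (48.4%), against 3.01% and 21.2% of 27025 genes. The search was on the gene's own strand, a match is a description of the letters, and starts can be annotated a few bases off.

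**Figure D5:**
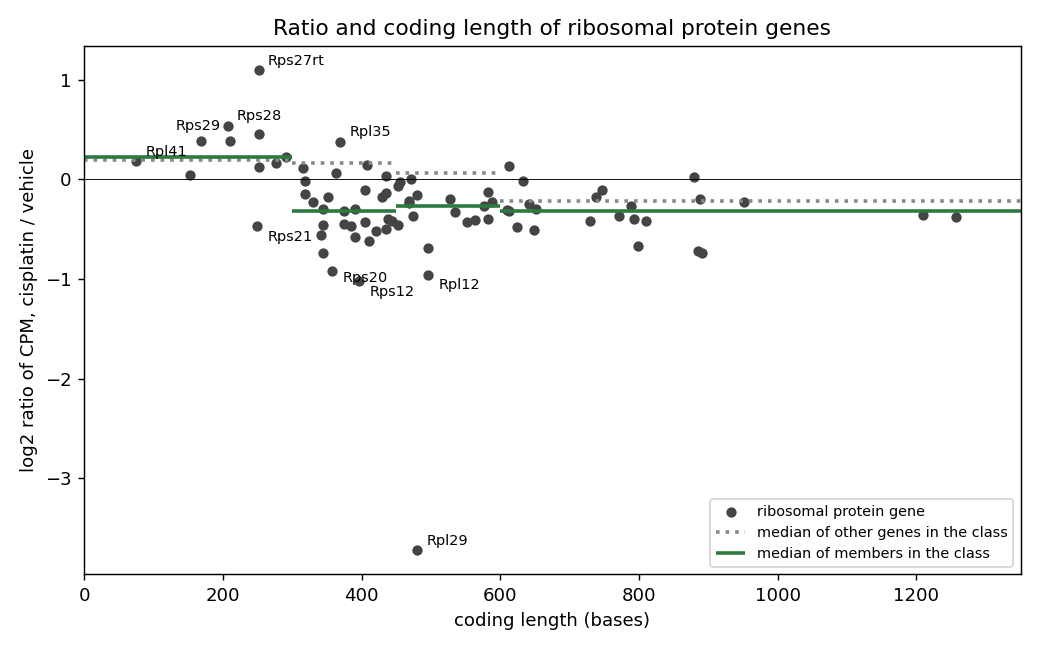
Log2 ratio of CPM, cisplatin over vehicle (y axis), against the coding length in bases (x axis) of the 82 measured members with an annotated coding sequence; solid lines are medians of the members in 4 length classes and dotted lines medians of the other genes in the same classes. The 11 members under 300 bases have a median of 0.23 and the 3 longer classes medians of -0.32 to -0.27.

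The shortest members were higher in cisplatin than the longer ones. Of 11 members with a coding length under 300 bases, 10 were above 0 and the median ratio was 0.23. The exception was Rps21, with 959 CPM in cisplatin and 1331 CPM in vehicle, a ratio of -0.47. The classes of 300 to 450, 450 to 600 and at least 600 bases held 29, 19 and 23 members, with medians of -0.32, -0.27 and -0.32, and 5, 1 and 2 members above 0. Across members, Spearman's rho of the ratio with coding length was -0.33 (n = 82, and also -0.33 over 81 without Rpl29), given as a description, since all points come from the same 2 libraries.

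Short genes outside the family were higher too. Among the other measured genes with a coding sequence, 285 genes under 300 bases had a median of 0.20, and the next classes 0.17, 0.07 and -0.22, over 653, 797 and 10817 genes. The members under 300 bases thus lay near other genes of their length, 0.23 against 0.20. Members of 300 to 450 bases lay below theirs, at -0.32 against 0.17, as did those of 450 to 600 bases, at -0.27 against 0.07. Members of at least 600 bases were closer, at -0.32 against -0.22. What the trend with length comes from was not tested. The share of stretches found in no other gene gave a rho of -0.17 with the ratio.

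Members that touch signalling and the elongation cycle varied among themselves. Rpl5 and Rpl11 bind Mdm2 as a pair when ribosome assembly fails, which frees p53, though P53 is floxed in these mice. Rpl5 had 386 CPM in cisplatin and 647 CPM in vehicle, a log2 ratio of -0.74, and Rpl11 had 1471 CPM in cisplatin and 1849 CPM in vehicle, a ratio of -0.33. Rps6, which the S6 kinases phosphorylate downstream of mTOR, had 1635 CPM in cisplatin and 1757 CPM in vehicle, a ratio of -0.10. Of the stalk proteins that call in elongation factors, Rplp1 was at 1540 CPM in cisplatin and 2276 CPM in vehicle (ratio -0.56), Rplp2 at 1583 and 2182 CPM (-0.46) and Rplp0 at 1088 and 1277 CPM (-0.23). Over all tumour cells none of the 3 passed 1.5-fold, but Rplp1 did in mitotic cells (-0.59), in Hhex-positive cells (-0.62), at a depth of 5000 to 10000 UMIs and at a mitochondrial share of at most 5%. Rpsa, a small-subunit protein also known as the laminin receptor precursor, was at 987 CPM in cisplatin and 1629 CPM in vehicle, a ratio of -0.72 that passes 1.5-fold, but not under size factors, where it was -0.56.

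The remaining members past 1.5-fold lower were Rpl30, Rps10, Rpl7a and Rpl28, with ratios from -0.74 to -0.62. The closest member outside that limit was Rps24, at -0.58. Rpl41, Rpl37a and Rpl13 were named for their CPM averaged over both libraries, where a message is counted once whatever its length. Rpl41 had 6835 CPM in cisplatin and 6022 CPM in vehicle (ratio 0.18), Rpl37a 3107 and 2784 CPM (0.16), and Rpl13 2821 and 2847 CPM (-0.01).

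Paralogs that can take the place of a ribosomal protein stayed within 1.5-fold of vehicle, apart from Rps27rt. Rps27l, a p53 target in other cells, had 844 CPM in cisplatin and 776 CPM in vehicle, a log2 ratio of 0.12. Rpl22l1 had 702 CPM in cisplatin and 671 CPM in vehicle (0.06), while its parent Rpl22, a gene recurrently mutated in human cancers, had 572 CPM in cisplatin and 793 CPM in vehicle (-0.47). Rpl36al had 721 CPM in cisplatin and 731 CPM in vehicle (-0.02), with its X-linked parent Rpl36a at 809 and 897 CPM (-0.15). Rpl7l1 had 70.0 CPM in cisplatin and 79.3 CPM in vehicle (-0.18), with its parent Rpl7 at 1124 and 1502 CPM (-0.42). The other X-linked parents, Rpl10, Rpl39 and Rps4x, had ratios of -0.25, 0.04 and -0.27, and Rpl3 had -0.36.

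Between cell states the members kept closer to one another than between libraries. Their ratios ran from -0.54 to 0.26 over the state comparisons, against -3.72 to 1.10 for cisplatin over vehicle. In mitotic over other cells, 76 of 83 members were below 0 in cisplatin and 80 in vehicle, with medians of -0.17 and -0.27, where the median of all genes was 0.04 and 0.01. No member passed 1.5-fold, against 12.1% of all genes higher and 6.79% lower in cisplatin, and 10.9% and 5.68% in vehicle. In G1/S-high over other cells, 69 members were below 0 in cisplatin and 80 in vehicle, none passing 1.5-fold, against 7.1% of genes higher and 2.42% lower in cisplatin and 7.65% and 1.85% in vehicle. In Hhex-positive over Hhex-negative cells, 78 members were below 0 in cisplatin and 78 in vehicle, again with none past 1.5-fold, against 9.04% of genes higher and 12% lower in cisplatin and 10.8% and 13.5% in vehicle. These shares take in any gene with at least 50 UMIs over the compared cells, and ratios of genes with few UMIs spread more by counting error. Most members had far more UMIs, and the Hhex-positive vehicle cells held only 631187 of 32049978 UMIs. The part of abundance in the contrast was not tested.

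Rpl7l1, a paralog tied to early assembly of the large subunit, was the 1 member at least 0.3 above the family's median in mitotic cells of both libraries. It had 76.3 CPM in mitotic and 66.1 CPM in other cells of the cisplatin library (log2 ratio 0.21), and 84.6 and 78.4 CPM in the vehicle library (0.11). Rps27l was also above 0 in mitotic cells, at 0.08 in cisplatin and 0.11 in vehicle, and in G1/S-high cells, at 0.18 and 0.07. Rpsa was above 0 in G1/S-high cells, with 1134 CPM in G1/S-high and 979 CPM in other cisplatin cells (0.21), and 1731 and 1653 CPM in vehicle (0.07). X-linked Rpl10 lay lowest of all members in mitotic vehicle cells, at -0.54, and was at -0.39 in mitotic cisplatin cells.

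The members kept a like order between the libraries. Across the 83 members, Pearson's r of the departure from the family's median in cisplatin with that in vehicle was 0.79 for mitotic cells, 0.87 for G1/S-high cells and 0.62 for Hhex-positive cells. These are descriptions across genes, which are not independent replicates, and depth and message abundance are shared by the points. In Hhex-positive cells the member furthest above the family in cisplatin was Rpl36al, with 821 CPM in Hhex-positive and 684 CPM in Hhex-negative cells, a log2 ratio of 0.26. In the 51 Hhex-positive vehicle cells it had 727 CPM (662 to 797), and in Hhex-negative vehicle cells 731 CPM. Rps27rt was low in Hhex-positive cells of both libraries, at -0.39 in cisplatin and -0.51 in vehicle, and Rps27 at -0.37 and -0.36. Rpl38 was at 0.12 in Hhex-positive cisplatin cells and at -0.02 in vehicle.

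All 10 members that departed between the libraries over all tumour cells did so within each state, and a few more joined them. In total 11 departed in mitotic cells (27.8% of all genes lay as far from their own median), 12 in G1/S-high cells (29.6%), 13 in other cells (28.9%), 14 in Hhex-positive cells (41.8%) and 11 in Hhex-negative cells (23.9%). Those that joined were Rpl5, Rpl37 and Rpl41 in 1 or more of the cell cycle classes, Rpl37 in Hhex-negative cells, and Rpsa, Rpl7a, Rpl22l1 and Rpl6l in Hhex-positive cells. In cisplatin over vehicle, the lowest 4 members were Rpl29, Rps12, Rpl12 and Rps20 in mitotic, G1/S-high, other and Hhex-negative cells, in changing order. In Hhex-positive cells they were Rpl29, Rps20, Rps12 and Rpl7a, with Rpl12 at -0.70. Rps27rt was the highest in all 5 states, at 1.07 in mitotic, 1.22 in G1/S-high, 1.00 in other, 1.30 in Hhex-positive and 1.18 in Hhex-negative cells. The count of members past 1.5-fold lower was 11 in mitotic cells, against 18% of all genes, 10 in G1/S-high cells, against 20.4%, and 13 in other cells, against 19.4%. It was 9 in Hhex-positive cells, against 25.4%, and 10 in Hhex-negative cells, against 16.4%. The shares of all genes were not matched to the members in abundance, and those for Hhex-positive cells rest on 51 vehicle cells. These states are parts of the same 2 libraries and give no replicate of the difference.

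Other genes around the ribosome were set beside the members. Of 19 measured genes with a known or likely 5′ TOP message or a place at the ribosome, 6 were 1.5-fold lower in cisplatin and 0 higher, against 17.6% and 6.68% of all genes, with a median of -0.27. Measured from the median of all genes, 5 were lower and 0 higher, and the share of all genes by that measure was not taken. Eef1a1, the factor that brings in the aminoacyl-tRNA, had 3052 CPM in cisplatin and 6099 CPM in vehicle (-0.999). Its exchange factor Eef1b2 had 305 CPM in cisplatin and 578 CPM in vehicle (-0.92), and the translocation factor Eef2 had 898 CPM in cisplatin and 1681 CPM in vehicle (-0.90). Fau encodes a ribosomal protein made as a fusion to a ubiquitin-like protein and falls outside the symbol rule; it was chosen after its values were seen. It had 1570 CPM in cisplatin and 1862 CPM in vehicle (-0.25).

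Of 26 genes of ribosome biogenesis, 4 were 1.5-fold lower and 0 higher, against 17.6% and 6.68% of all genes, and the median was -0.08. The 4 called lower are thus near the share of all genes. Measured from the median of all genes, 3 were lower and 0 higher, and the share of all genes by that measure was not taken. The nucleolar protein Ncl had 280 CPM in cisplatin and 499 CPM in vehicle (-0.83). Rrp1b, another nucleolar protein, had 20.3 CPM in cisplatin and 35.2 CPM in vehicle (-0.76), and Polr1a, the large subunit of RNA polymerase I, had 4.58 and 8.46 CPM (-0.76). Of 21 genes of mTOR signalling, its TOP regulators and the Myc family, 8 were lower and 2 higher, against the same 17.6% and 6.68%, with a median of -0.50. Measured from the median of all genes, 5 were lower and 3 higher, again without a share of all genes by that measure. The kinase Akt1 had 22.9 CPM in cisplatin and 49.5 CPM in vehicle (-1.08), and the mTOR partner Rptor had 8.38 and 17.4 CPM (-0.97). The 2 called higher, named after their values were seen, were Eif4e and Rheb. Eif4e had 249 CPM in cisplatin and 148 CPM in vehicle (0.75), and Rheb had 473 and 304 CPM (0.64).

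Mitochondrial ribosomal protein genes, which serve the separate ribosome of mitochondria, lay on the other side of the median of all genes. Of 76 measured ones, 0 were 1.5-fold higher, against 6.68% of all genes, and 0 lower, against 17.6%, and their median was 0.07, which is 0.23 above all genes. Mrpl9 had 31.5 CPM in cisplatin and 45.2 CPM in vehicle (-0.51), Mrps14 had 211 and 155 CPM (0.44), and Mrpl55 had 99.8 and 74.0 CPM (0.43).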

How the data were processed

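The authors deposited 1 matrix of whole-number UMI counts per library, not normalized, per the file headers. Per the submitters' processing notes Cell Ranger 2.0.2 and mm10 were used, with no role given. Barcodes needed at least 500 genes and at most 10% mitochondrial UMIs, which took out 36 in cisplatin and 54 in vehicle. Also left out were 5 and 22 with at least 3 markers of 1 of 10 other cell types, counting markers found in under 2% of barcodes. No doublet caller was run, and barcode totals reached 82540 and 42873 UMIs. Whole libraries held 28777462 and 32519922 UMIs. Counts were summed over cells and scaled to CPM, and ratios were taken with 1 CPM added; for states, 361 cisplatin and 144 vehicle cells under 3000 UMIs were left out. Intervals are exact 95% (Poisson, Clopper-Pearson), and the limit for a count of 0 is 3 counts. With 1 library per group nothing was tested. Coordinates, coding lengths and shared stretches come from GENCODE M21 (GRCm38), and the 50-base stretches from the last 300 bases of 1 transcript per gene. Named genes are members 0.5 from the family's median, set paralog pairs and signalling members, the 3 with the highest CPM, and the 3 largest ratios of each other list; further members at a limit or an extreme were named after their values were seen. Some genes the rule takes are not reported here by name, though counts and medians hold them. The members and lists were chosen with earlier results of these data known. Alternatives were TMM (edgeR 4.0.16), size factors (DESeq2 1.42.0, R 4.3.3), other cells, floors, pseudocounts, folds and class limits. The 1.5-fold calls and the intervals of ratios were tested on simulated gene sums that held counting error only. The other steps were not tested in that way. Python 3.11.15, numpy 2.4.6, scipy 1.17.1, pandas 2.3.3 and matplotlib 3.10.9 were used.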

Additional observations from a re-analysis of the deposited data

Results flagged for a closer look

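A few members lay on opposite sides of 0 in the 2 libraries, with counting intervals that do not reach 0; the difference between the libraries was not tested, and each library stands alone. In mitotic over other cells, Rplp0 of the stalk was at 0.039 in cisplatin and -0.13 in vehicle, the small-subunit protein Rps9 at 0.11 in cisplatin and -0.10 in vehicle, and the large-subunit protein Rpl24 at 0.041 in cisplatin and -0.088 in vehicle (log2 ratios). In G1/S-high over other cells, Rplp1 was at 0.12 in cisplatin and -0.027 in vehicle and its stalk partner Rplp2 at 0.059 in cisplatin and -0.039 in vehicle. Rpl39 was at 0.061 in cisplatin and -0.072 in vehicle, and Rpl15 at 0.11 in cisplatin and -0.066 in vehicle. In Hhex-positive over Hhex-negative cells, Rpl10 was at 0.084 in cisplatin and -0.19 in vehicle, where the vehicle value rests on 51 Hhex-positive cells.

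Rows named as ribosomal protein pseudogenes fall outside the symbol rule, and their sum lay above the limit for a count of 0. The 16 rows, 13 of them with at least 50 UMIs over both libraries, summed to 759 CPM in cisplatin and 712 CPM in vehicle.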

How the results depend on the processing

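Over 76 alternatives to 9 summary values, 34 moved the value past its counting interval or, for a count, by over 1.5 times. Of the ratios, 0 reversed a direction, and a count of members had no direction to reverse. The ratio of the summed share, cisplatin over vehicle (-0.20), was -0.071 with TMM, -0.045 with size factors, -0.197 without mitochondrially encoded genes, -0.28 with 5000 to 10000 UMIs, -0.16 without Hhex-positive cells, -0.26 in other cells and -0.25 with a mitochondrial share of at most 5%, a limit chosen after seeing the data. The 1 member called higher became 2 with TMM, 3 with size factors and 0 with near-identical rows summed, also chosen after seeing the data; the 10 called lower became 5 with size factors and 2 at 2-fold. For mitotic over other cells, the cisplatin value (-0.19) was -0.20 without mitochondrially encoded genes, -0.17 with matched depth, -0.21 with a limit of 3 UMIs, -0.18 without thinning, -0.21 without Hhex-positive cells and -0.19 at low mitochondrial share. The vehicle value (-0.28) was -0.28, -0.30, -0.30 and -0.23 under the first 4 and -0.26 under the last. For G1/S-high over other cells, cisplatin (-0.08) gave -0.089 without mitochondrially encoded genes, -0.059 with matched depth, and -0.057 and -0.11 with limits of 2 and 5 UMIs, and vehicle (-0.18) gave -0.19 and -0.21 with those limits and -0.16 at low mitochondrial share. Hhex-positive over Hhex-negative cisplatin cells (-0.18) gave -0.14 with matched depth, -0.21 with a 5-gene rule, -0.18 after thinning and -0.20 in other cells. The 13 settings for named members include floors of 20 and 200 UMIs, which cannot change a ratio, and summed rows, which change only members with such a row. Of 7 called members named, Rpl29, Rps12, Rpl12, Rps20 and Rpl5 kept their call in 13 settings, Rps27rt lost it with rows summed (0.52) and Rpsa with size factors (-0.56). The cause of these moves was not tested. No paired analysis was possible because each group has 1 library. The lowest barcode total was 1892 UMIs in cisplatin and 2478 in vehicle, and 51 Hhex-positive vehicle cells limit the values there.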

Other observations

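Between cell states, the other genes around the ribosome had other medians than the members. In mitotic over other cells, where the ribosomal protein genes had medians of -0.17 in cisplatin and -0.27 in vehicle, 26 genes of ribosome biogenesis had medians of 0.10 and 0.10, with 2 and 1 past 1.5-fold higher, against 12.1% and 10.9% of all genes, and 0 lower in both libraries, against 6.79% and 5.68%. The 76 mitochondrial ribosomal protein genes had medians of -0.0045 in cisplatin and 0.01 in vehicle, with 4 and 2 higher and 0 lower, against the same shares of all genes. In G1/S-high cells biogenesis genes had medians of 0.13 in cisplatin and 0.10 in vehicle, against -0.09 and -0.18 for the members.

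In Hhex-positive over Hhex-negative cells, mitochondrial ribosomal protein genes had medians of 0.08 in cisplatin and 0.12 in vehicle, against -0.19 and -0.22 for the cytosolic ones. The 21 genes of mTOR signalling and the Myc family had a median of -0.30 in Hhex-positive cisplatin cells, 3 being 1.5-fold lower, against 12% of all genes, and 0 higher, against 9.04%. In vehicle the median was -0.10, with 5 lower, against 13.5%, and 0 higher, against 10.8%. These values have no replicate, and the differences between the lists were not tested.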
